A study of Mus musculus with 8 samples.

Results

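687g and Epcam hi are lines of mouse mammary carcinoma cells of C57BL/6 origin, both derived from tumours of the MMTV-PyMT-Snail-IRES-YFP reporter model, and their transcriptomes were compared across pathways and gene families beyond the usual markers of the epithelial-mesenchymal transition. The comparison was chosen by sample title and used the 2 libraries of 687g and the 2 of Epcam hi, 4 of the 8 libraries in the series. In this model the MMTV promoter drives the polyoma virus middle T oncogene (PyMT) in mammary epithelium, and the second allele is named for the Snail gene, which encodes a transcriptional repressor, with an IRES and a YFP marker. The other 4 libraries come from pB3 and pB2, C57BL/6 lines from MMTV-PyMT tumours without the reporter. They entered the statistical fit and served to test whether a difference between 687g and Epcam hi was also found between pB3 and pB2. All cells grew as adherent monolayers in the same serum-containing medium. Each name stands for 1 line, so a property of the line and a property of its epithelial or mesenchymal state cannot be told apart. Whether the 2 libraries of a line come from separate cultures is not in the labels, and the p-values cover no more than the spread among these libraries, which may be technical.

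Carcinoma cells that leave the epithelial state dismantle tight junctions, desmosomes and apical-basal polarity, and deposit a different matrix. Transcription factors of the Snail and Zeb families repress epithelial genes by binding E-boxes in their promoters. Bone morphogenetic proteins (BMPs) and TGF-beta signal through Smad proteins, and BMP signals switch on the Id genes, which encode inhibitors of helix-loop-helix transcription factors. The tumour suppressor p53 switches on genes of cell cycle arrest and cell death, and MHC class I molecules show peptides from inside the cell to T cells.

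The 687g libraries held 19149916 and 16094250 gene counts, and the Epcam hi libraries 13701156 and 18515857. Levels below are CPM, gene counts scaled to a common library total, on totals scaled by the trimmed mean of M values (TMM). A log2 fold change is 687g over Epcam hi with an approximate standard error (SE) after ±. The SE is the size of the log2 fold change divided by the square root of the test's F statistic. Of 15890 genes tested with edgeR, 5789 (36.4%) passed an adjusted p of 0.05, 2927 of them (18.4%) higher and 2862 (18%) lower in 687g, and the log2 fold changes over all tested genes had a median of −0.03. In 687g, 350 genes were over 32-fold higher and 414 over 32-fold lower. The 2 Epcam hi libraries lay further apart than the 2 of 687g, with 13.4% of genes over 2-fold apart against 6.32%. Without scaling factors the split was 2445 higher and 3405 lower. In bulk RNA of a line, fewer cells of a type and less RNA per cell cannot be told apart. Besides the largest changes and the top member of each list in each direction, genes named below were chosen after their values were seen.

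The 10 largest rises in 687g were secreted and surface proteins for the most part. Notum, a secreted enzyme that inactivates Wnt ligands, encoded at chr11:120653788-120661175 in GRCm38, stood at 184 and 104 CPM in 687g, against 0.14 and 0.0547 CPM in Epcam hi. The Epcam hi value rests on 3 counts, and the ratio of counts was 1601 with a 95% counting interval of 548 to 7768. Smoc2, a matricellular calcium-binding protein, had 787 and 704 CPM in 687g and 1.05 and 0.383 CPM in Epcam hi (log2 fold change 10.07 ± 0.46, edgeR adjusted p 1.39e-09). Il6, the inflammatory cytokine interleukin-6, had 148 and 263 CPM in 687g and 0.421 and 0.164 CPM in Epcam hi (9.49 ± 0.47, edgeR adjusted p 2.92e-09). Chst15, which sulphates chondroitin, had 62 and 50.8 CPM in 687g and no count in Epcam hi, so it was at least 612-fold higher, taking 3 counts in the line as the floor. Tnfrsf11b encodes osteoprotegerin, the decoy receptor for the osteoclast factor RANKL, and had 45.8 and 66.4 CPM in 687g against 0.0702 and 0 CPM in Epcam hi. Tnfaip8l3, Kctd12b, Nrn1, Heg1 and Galnt15 completed the set, each at 75.8 CPM or more in both 687g libraries and at 0.281 CPM or less in both Epcam hi libraries.

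The largest falls, 9 of which are described here, included epithelial surface, tight junction and polarity genes. Cldn7, a tight junction claudin, stood at 0.558 and 0.671 CPM in 687g, against 352 and 396 CPM in Epcam hi (log2 fold change −9.24 ± 0.26, edgeR adjusted p 7.72e-11). Cldn4, another claudin, had 2.29 and 1.07 CPM in 687g and 1084 and 791 CPM in Epcam hi (−9.09 ± 0.37, edgeR adjusted p 5.34e-10). Crb3, a Crumbs protein that specifies the apical membrane, had no count in 687g and 48.1 and 62.4 CPM in Epcam hi, and was at least 605-fold lower. Bspry had 0.112 and 0.134 CPM in 687g and 78.7 and 72.7 CPM in Epcam hi. Plekhs1, Ppp2r2c, Slc25a48, Hook1 and Arhgef16, a guanine nucleotide exchange factor, were likewise at 0.223 CPM or less in both 687g libraries and at 41 CPM or more in both Epcam hi libraries. The groups did not overlap for any of these 19 genes, which were chosen for their folds, so the choice fixes this. Where 1 line lies near 0, the size of the fold moves with single counts. Leaving out 1 library changed the fold by over 1.5 times for 96 of the 256 genes followed by name, 61 of them changed over 32-fold, and for the 19 genes here no call was lost.

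**Figure D1:**
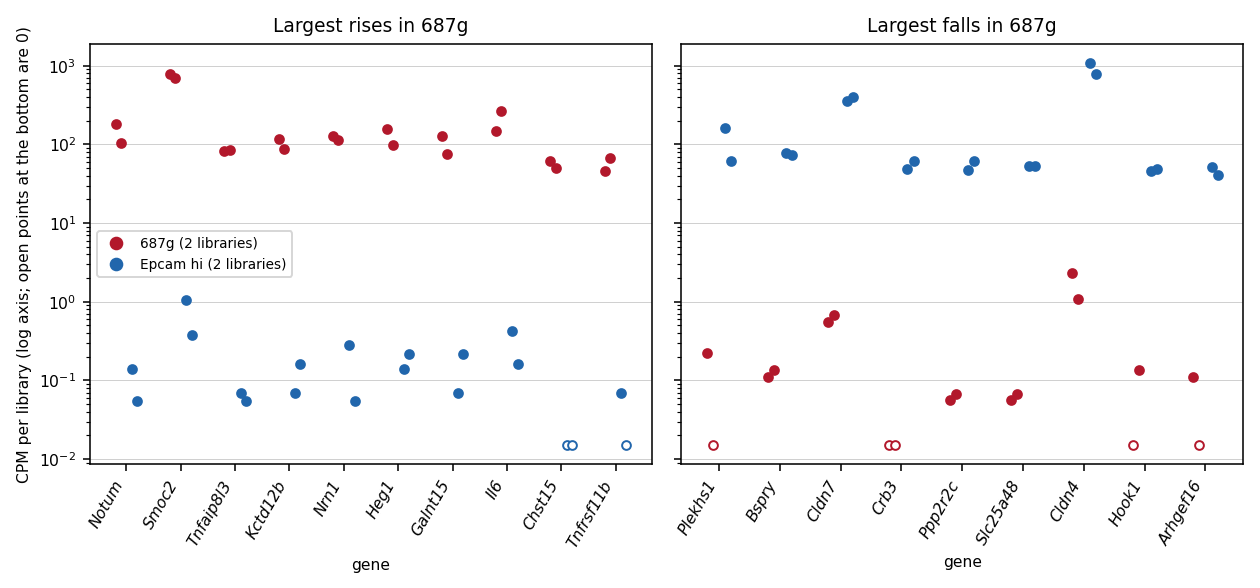
CPM on a log axis in each library of 687g (red) and Epcam hi (blue) for the 10 largest rises (left) and 9 of the largest falls (right) in 687g, with open points at the bottom for libraries at 0. Every gene has its 2 points of 1 line above 40 CPM and its 2 points of the other line below 3 CPM.

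The starts of these genes were read for 5 short motifs, because Snai1 and Zeb1 encode repressors that bind E-boxes. Zeb1 stood at 49.5 and 41.4 CPM in 687g, against 0.351 and 1.04 CPM in Epcam hi (log2 fold change 5.95 ± 0.34, edgeR adjusted p 1.08e-08), and Snai1 at 25.8 and 14.7 CPM in 687g, against 5.33 and 3.72 CPM in Epcam hi (2.17 ± 0.30, edgeR adjusted p 7.02e-05). Windows ran from 250 bases before to 30 bases after the annotated start in the RefSeq promoter table of GRCm38.p6, both strands were searched, and 10565 of the tested genes had at least 1 window. The E-box CAGGTG, which reads CACCTG on the other strand, was present in 19.1% of all 32851 windows in the table and in 17.2% of windows of tested genes. It was present in 146 of 404 windows (36.1%) of genes over 32-fold lower in 687g and in 50 of 310 (16.1%) of genes over 32-fold higher. Among all called genes it was in 23.9% of windows of genes lower in 687g and 15% of those higher, and in 15.7% of windows of genes not called. All 9 of these falls had a window, and each gene held an E-box in at least 1 of its windows, while none of the 5 largest rises with a window did. These are counts of genes, unlike the shares of windows above. A match describes letters only and is not evidence of binding.

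For the 5 described falls with at least 2 E-boxes in a window, a window holding the most is printed 5′ to 3′. The windows show how the matches sit around the start, with the E-boxes in capitals. They are Cldn7 at chr11:69965171-69965450 (plus strand), Crb3 at chr17:57061981-57062260 (plus strand), Ppp2r2c at chr5:36868260-36868539 (plus strand), Cldn4 at chr5:134946905-134947184 (minus strand) and Arhgef16 at chr4:154299866-154300145 (minus strand). Crb3 held 4 E-boxes, Arhgef16 3 and the other genes 2 each.
Cldn7: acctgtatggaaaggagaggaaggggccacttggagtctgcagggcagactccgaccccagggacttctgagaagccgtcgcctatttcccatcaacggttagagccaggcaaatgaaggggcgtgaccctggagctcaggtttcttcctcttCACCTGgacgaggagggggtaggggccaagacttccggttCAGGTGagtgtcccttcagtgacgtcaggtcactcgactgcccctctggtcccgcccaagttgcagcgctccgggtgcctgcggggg
Crb3: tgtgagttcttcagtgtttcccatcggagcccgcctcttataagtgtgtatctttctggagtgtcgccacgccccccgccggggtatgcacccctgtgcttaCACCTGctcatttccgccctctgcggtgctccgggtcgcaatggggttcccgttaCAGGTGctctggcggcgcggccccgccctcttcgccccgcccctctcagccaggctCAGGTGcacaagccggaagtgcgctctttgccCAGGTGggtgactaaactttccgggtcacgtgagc
Ppp2r2c: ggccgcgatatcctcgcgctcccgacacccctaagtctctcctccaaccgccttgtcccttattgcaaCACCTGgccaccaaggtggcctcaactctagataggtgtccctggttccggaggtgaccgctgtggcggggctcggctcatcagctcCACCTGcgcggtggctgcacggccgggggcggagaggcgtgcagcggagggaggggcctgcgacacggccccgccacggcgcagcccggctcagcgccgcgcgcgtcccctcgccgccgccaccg
Cldn4: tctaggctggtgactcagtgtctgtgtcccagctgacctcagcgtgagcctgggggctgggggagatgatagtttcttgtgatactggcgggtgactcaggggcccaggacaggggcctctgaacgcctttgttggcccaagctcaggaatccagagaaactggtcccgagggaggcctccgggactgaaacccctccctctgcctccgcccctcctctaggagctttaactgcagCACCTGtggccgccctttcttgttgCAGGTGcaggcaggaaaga
Arhgef16: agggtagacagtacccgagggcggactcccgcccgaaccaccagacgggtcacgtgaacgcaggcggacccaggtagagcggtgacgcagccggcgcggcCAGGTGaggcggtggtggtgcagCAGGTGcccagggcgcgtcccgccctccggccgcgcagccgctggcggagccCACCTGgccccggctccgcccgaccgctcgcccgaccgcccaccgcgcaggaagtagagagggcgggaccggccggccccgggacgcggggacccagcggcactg

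The AP-1 letters TGANTCA, the same on both strands, were in 7.46% of all windows and 5.3% of windows of tested genes. They were in 11.3% of windows of genes over 32-fold higher in 687g, in 9.41% of those over 32-fold lower and in 4.51% of those not called, so the share was above that of genes not called in both directions. The TEAD letters GGAATG, on either strand, were in 11.3% of windows of genes over 32-fold higher and 19.1% of those over 32-fold lower, against 11.2% of those not called and 13.9% of all windows. The interferon response letters, GAAA, any 2 bases and GAAA again, or their complement on the other strand, were in 4.52% of windows of genes over 32-fold higher and 2.23% of those over 32-fold lower, against 2.78% of those not called and 3.28% of all windows. The grainyhead letters AACCGGTT were in 0.131% of all windows, too few to set groups side by side. Among the falls described, Cldn4 alone held the AP-1 letters, at 2 sites in the window printed above, in lower case there. The 2 windows with AP-1 letters among the largest rises belong to Galnt15 at chr14:32028853-32029132 (plus strand) and Il6 at chr5:30012864-30013143 (plus strand), with the letters in capitals.
Galnt15: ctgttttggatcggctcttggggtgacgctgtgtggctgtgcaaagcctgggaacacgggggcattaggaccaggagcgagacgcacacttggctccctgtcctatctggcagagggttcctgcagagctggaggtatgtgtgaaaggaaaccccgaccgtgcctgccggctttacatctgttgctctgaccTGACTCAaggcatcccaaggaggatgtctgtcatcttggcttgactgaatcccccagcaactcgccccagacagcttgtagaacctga
Il6: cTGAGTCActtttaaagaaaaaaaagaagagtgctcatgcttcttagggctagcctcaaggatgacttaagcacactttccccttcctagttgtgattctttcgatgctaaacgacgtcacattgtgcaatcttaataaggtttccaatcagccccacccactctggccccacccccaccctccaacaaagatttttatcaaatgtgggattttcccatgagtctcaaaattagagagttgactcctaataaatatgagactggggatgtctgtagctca

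**Figure D2:**
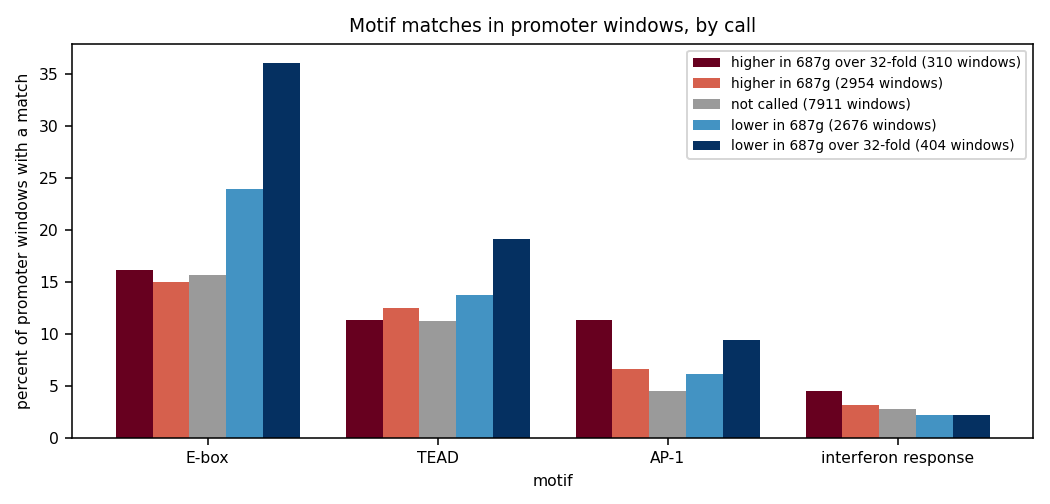
Percent of promoter windows that hold a match to each motif, for genes higher in 687g by over 32-fold, all genes higher, genes not called, all genes lower and genes lower by over 32-fold (left to right, dark red to dark blue). The E-box bar is tallest for genes over 32-fold lower, at 36.1%, and lies between 15% and 16.1% for the 3 groups not lower in 687g.

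Members of 79 lists of pathways and families, apart from marker lists, were counted against the background of all tested genes, 18.4% higher and 18% lower. Shares are of members that passed the filter on low counts, and a member that passed only through the line where it is high had to differ, so the counts describe the lists and are no test of them. Among lists with at least 20 tested members, the shares called higher were above 50% for the phosphodiesterase and adenylyl cyclase family, the matricellular and elastic fibre genes and the TGF-beta and BMP pathway. The shares called lower were above 50% for p53 targets and Cdk inhibitors, genes of epithelial polarity and trafficking, MHC class I antigen presentation, proteases and their inhibitors, and the dual-specificity phosphatase and Sprouty family.

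**Figure D3:**
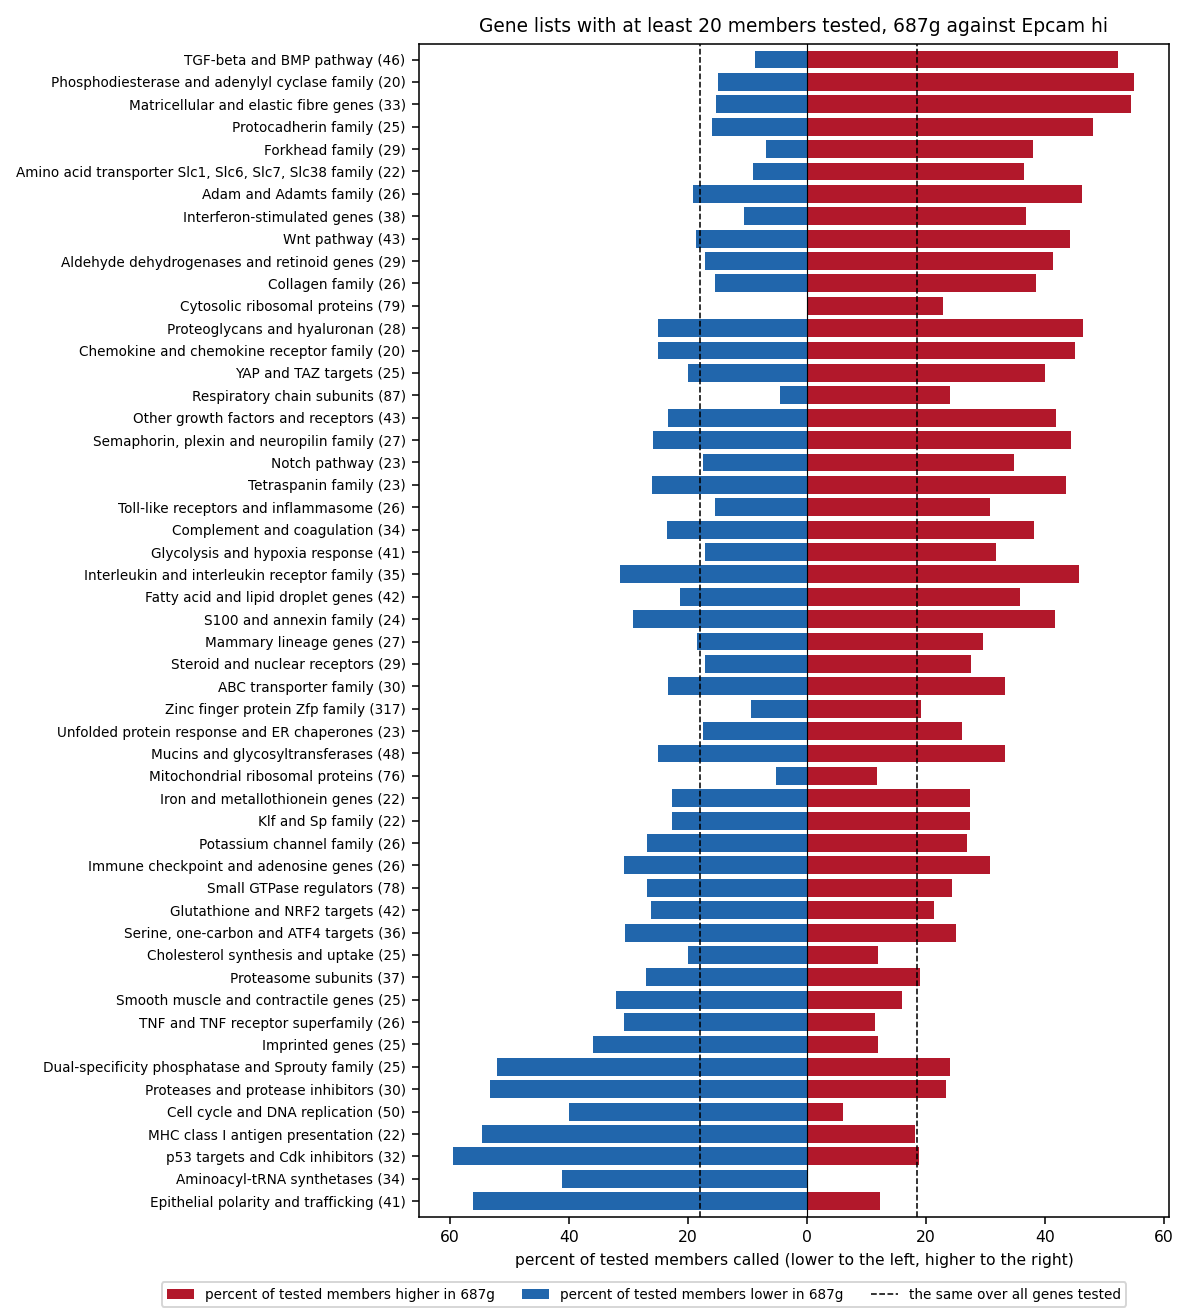
Percent of tested members called higher (red, to the right) and lower (blue, to the left) in 687g for the 52 lists with at least 20 tested members, whose number stands after each name. Dashed lines mark the shares over all genes tested, 18.4% higher and 18% lower.

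Of 61 members of the TGF-beta and BMP pathway, 46 were tested, and 24 (52.2%) were higher and 4 (8.7%) lower in 687g, with a median log2 fold change of 1.40. The median was 1.18 with the fold taken at the floor for genes of 3 counts or fewer in 1 line. The counts higher were 23 to 26 when 1 library was left out. Among ligands, Bmp2 stood at 364 and 409.8 CPM in 687g, against 1.12 and 1.53 CPM in Epcam hi (log2 fold change 8.16 ± 0.27, edgeR adjusted p 1.68e-10). Bmp7 had 132 and 134 CPM in 687g and 18.8 and 14.2 CPM in Epcam hi (3.01 ± 0.21, edgeR adjusted p 8.30e-08), and Tgfb3 had 54.7 and 49.1 CPM in 687g and 7.23 and 6.4 CPM in Epcam hi. Tgfb1 had 136 and 80.9 CPM in 687g and 36.1 and 35.7 CPM in Epcam hi (1.60 ± 0.23, edgeR adjusted p 7.97e-05). All 4 latent TGF-beta binding proteins, which store the ligand in the matrix, were higher too, with Ltbp1 at 465 and 269 CPM in 687g and 70.5 and 70.6 CPM in Epcam hi. Of the receptors for TGF-beta itself, Tgfbr1 was higher, at 133 and 91 CPM in 687g and 35.9 and 45.7 CPM in Epcam hi, and Tgfbr2 lower, at 50.6 and 39.6 CPM in 687g and 153 and 132 CPM in Epcam hi (−1.66 ± 0.20, edgeR adjusted p 1.42e-05). Secreted antagonists went both ways, since Chrd (chordin) rose by 5.75 and Fst (follistatin) fell by 2.54 on the log2 scale. Grem1, a BMP antagonist, rose too, at 35.5 and 34.7 CPM in 687g and 0.772 and 3.88 CPM in Epcam hi. Its log2 fold change of 3.86 became 3.17 without Epcam hi replicate 1 and 5.51 without Epcam hi replicate 2.

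All 4 Id genes, classical targets of BMP signals, were higher in 687g. Id1 stood at 225 and 289 CPM in 687g, against 1.05 and 0.875 CPM in Epcam hi (log2 fold change 8.06 ± 0.27, edgeR adjusted p 1.68e-10). Id2 had 253 and 303 CPM in 687g and 12.9 and 8.91 CPM in Epcam hi, Id4 193 and 139 CPM in 687g and 7.23 and 8.75 CPM in Epcam hi, and Id3 468 and 449 CPM in 687g and 58.1 and 52.6 CPM in Epcam hi. The inhibitory Smads rose with them. Smad6 had 32 and 17.9 CPM in 687g and 0.0702 and 0 CPM in Epcam hi, a count ratio of 833 with an interval of 149 to 32923, and Smad7 had 256 and 273 CPM in 687g and 83.9 and 81.3 CPM in Epcam hi (1.68 ± 0.19, edgeR adjusted p 1.14e-05). The signal-carrying Smads did not pass the test, apart from Smad9. Smad4, the shared partner, had 100.5 and 80.4 CPM in 687g and 71.4 and 74.8 CPM in Epcam hi (edgeR adjusted p 0.197), and the log2 fold changes were 0.14 for Smad1, −0.23 for Smad2, −0.35 for Smad3 and −0.01 for Smad5. The pB pair was mixed. The log2 fold changes of pB3 over pB2 were −1.44 for Id1, −3.16 for Id2 and −2.40 for Smad6, opposite to those of 687g over Epcam hi, and 1.83 for Id3, 5.57 for Id4 and 2.04 for Smad7, in the same direction. The difference between the pairs passed for Id1 (edgeR adjusted p 1.72e-10) and was for Id2 7.84 (4.24e-10), for Bmp2 7.95 (5.99e-10) and for Smad6 11.73 (2.27e-08). It was smaller for Id3, at 1.22 (edgeR adjusted p 0.00101), and negative for Id4, at −1.20 (0.025), and did not pass for Smad7, at −0.36 (0.332).

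Of 34 p53 targets and Cdk inhibitors, 32 were tested, and 19 (59.4%) were lower and 6 (18.8%) higher in 687g, with a median log2 fold change of −0.78. The counts lower were 17 to 21 when 1 library was left out. Trp53 itself had 84.2 and 61.3 CPM in 687g and 66.4 and 86.4 CPM in Epcam hi, with overlapping groups (log2 fold change −0.07 ± 0.20, edgeR adjusted p 0.818). Eda2r, a death receptor induced by p53, had 4.46 and 4.3 CPM in 687g and 142 and 137 CPM in Epcam hi (−4.99 ± 0.22, edgeR adjusted p 9.52e-10). Perp, a p53 effector that is also a desmosome protein, had 47.6 and 64.9 CPM in 687g and 796 and 800.4 CPM in Epcam hi. Pmaip1, the cell death protein Noxa, had 2.57 and 1.61 CPM in 687g and 29.3 and 26.9 CPM in Epcam hi (−3.73 ± 0.28, edgeR adjusted p 1.33e-07). Mdm2, the ligase that degrades p53 and is also its target, had 146 and 149 CPM in 687g and 425 and 566 CPM in Epcam hi (−1.75 ± 0.19, edgeR adjusted p 7.38e-06). Cdkn1a, the arrest protein p21, had 69.9 and 45.3 CPM in 687g and 135 and 170.2 CPM in Epcam hi (−1.40 ± 0.22, edgeR adjusted p 1.60e-04). Ccng1 had 787 and 587 CPM in 687g and 1709 and 1830.1 CPM in Epcam hi, and Plk2 64.7 and 46 CPM in 687g and 578 and 483 CPM in Epcam hi.

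The 6 members that rose, 18.8% of those tested, included inhibitors of cyclin-dependent kinases and a sestrin. That share was near the 18.4% of all tested genes. Cdkn2a, which encodes p16 and p19Arf, had 40.3 and 30.1 CPM in 687g and 12.4 and 10.3 CPM in Epcam hi (log2 fold change 1.63 ± 0.23, edgeR adjusted p 7.04e-05), and its neighbour Cdkn2b rose by 0.99 on the log2 scale. Sesn1, a stress-induced sestrin, had 34.4 and 28.7 CPM in 687g and 12.6 and 6.29 CPM in Epcam hi (1.75 ± 0.28, edgeR adjusted p 2.16e-04). The change of Cdkn2a differed from that between pB3 and pB2 by 9.11 (edgeR adjusted p 2.69e-09), that of Mdm2 by −2.35 (1.03e-05) and that of Cdkn1a by −3.21 (2.11e-06). Bax, a pore-forming cell death protein, had 127 and 126 CPM in 687g and 179 and 205 CPM in Epcam hi (edgeR adjusted p 0.0114). It lost its call without Epcam hi replicate 2 (adjusted p 0.0575).

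**Figure D4:**
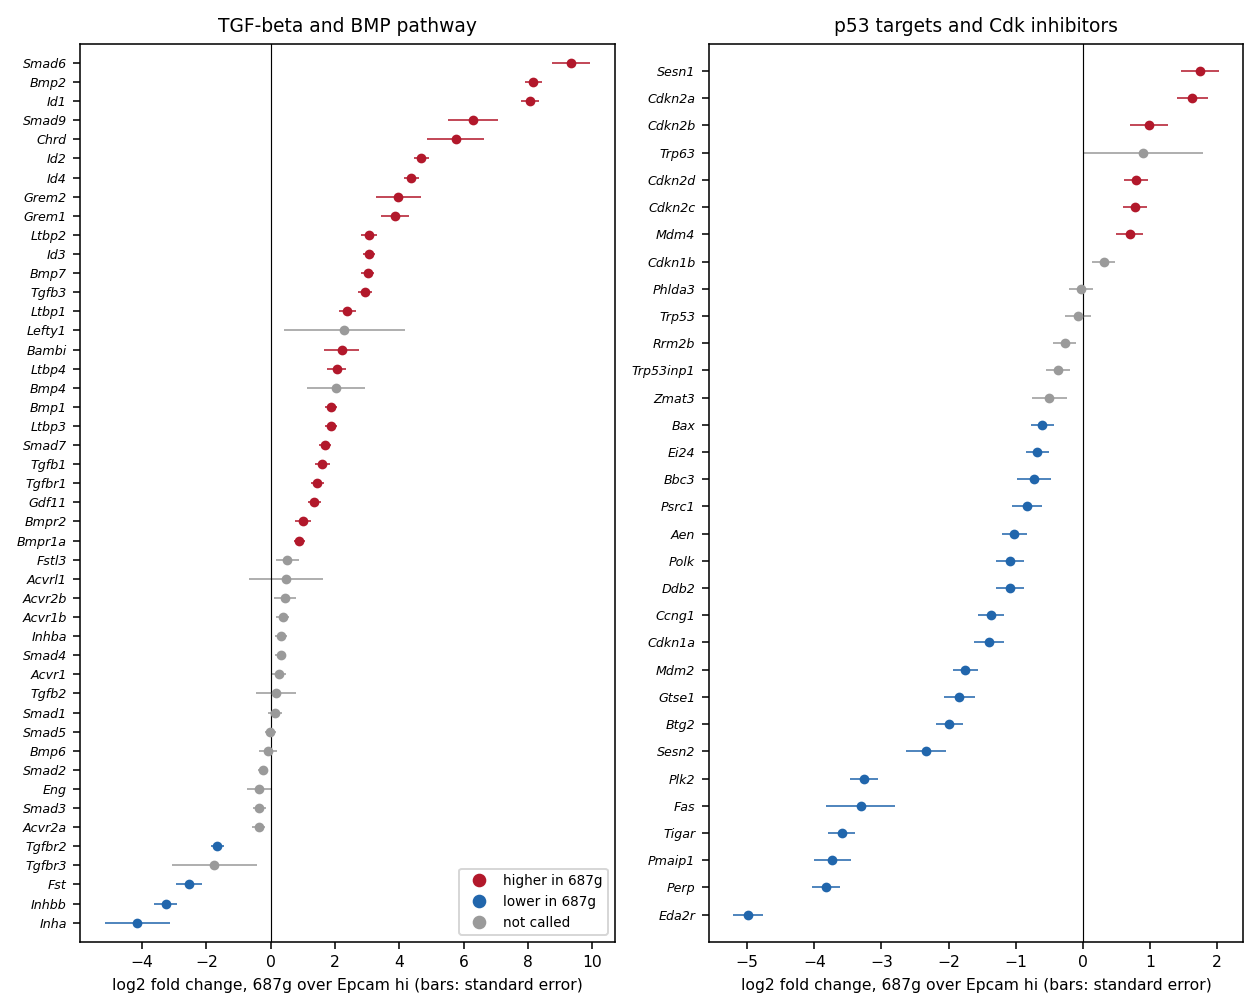
Log2 fold change of 687g over Epcam hi with its standard error (bars, 2 libraries per line) for every tested member of the TGF-beta and BMP pathway (left) and of the p53 targets and Cdk inhibitors (right), in red where higher, blue where lower and grey where not called. Smad6, Bmp2 and Id1 lie above 8, while Trp53 lies at −0.07 and 19 of the p53 list are blue.

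Of 43 tested members of the Wnt pathway, 19 (44.2%) were higher and 8 (18.6%) lower in 687g, the share lower being near the 18% of all tested genes. The median was 0.61, or 0.37 with the fold taken at the floor for genes of 3 counts or fewer in 1 line. Wls, the carrier that all Wnt ligands need for secretion, had 351 and 355 CPM in 687g and 131 and 109 CPM in Epcam hi (log2 fold change 1.55 ± 0.17, edgeR adjusted p 8.37e-06). Lgr6, a receptor for R-spondins, had 110.1 and 107 CPM in 687g and 74.2 and 73.9 CPM in Epcam hi (0.55 ± 0.17, edgeR adjusted p 0.0194), and lost its call without Epcam hi replicate 1 (adjusted p 0.0552). Sp5, a direct target of beta-catenin signalling, had no count in 687g and 9.4 and 6.07 CPM in Epcam hi, and was at least 84.7-fold lower. All 8 tested Wnt ligands were called, 4 (50%) in each direction, against 18.4% higher and 18% lower over all tested genes. Wnt5a, a ligand of the non-canonical branch, had 43.6 and 31.9 CPM in 687g and 0.632 and 1.04 CPM in Epcam hi (5.45 ± 0.34, edgeR adjusted p 2.26e-08), and Wnt4, Wnt5b and Wnt11 were the others higher. Wnt7b had 4.35 and 3.96 CPM in 687g and 287 and 258 CPM in Epcam hi (−6.03 ± 0.23, edgeR adjusted p 3.09e-10), and Wnt7a had 19 and 12.8 CPM in 687g and 172 and 174 CPM in Epcam hi (−3.44 ± 0.22). Wnt7a and Wnt7b were higher in pB3 than in pB2, with differences between the pairs of −9.41 and −8.96 (edgeR adjusted p 9.27e-10 and 1.50e-10).

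In the Notch pathway 8 of 23 tested members (34.8%) were higher and 4 (17.4%) lower, the share lower being near the 18% of all tested genes. The receptor Notch1 had 1.17 and 1.28 CPM in 687g and 35.4 and 36.1 CPM in Epcam hi (log2 fold change −4.87 ± 0.27, edgeR adjusted p 6.48e-09). Hey1, a repressor switched on by Notch and by BMP signals, had 18.7 and 16.4 CPM in 687g and 0.211 and 0.0547 CPM in Epcam hi (7.07 ± 0.39). In the EGF receptor family 2 of 14 (14.3%) were higher and 7 (50%) lower. Erbb3, which pairs with Erbb2, had 0.335 and 0.201 CPM in 687g and 51.4 and 50.1 CPM in Epcam hi (−7.50 ± 0.31, edgeR adjusted p 5.60e-10), and its ligand Nrg1 had 3.23 and 2.55 CPM in 687g and 25.4 and 31.1 CPM in Epcam hi. The ligands Areg and Btc rose, with Btc at 144 and 188 CPM in 687g and 25.8 and 42.4 CPM in Epcam hi (2.28 ± 0.24, edgeR adjusted p 3.86e-06). Egfr, their receptor, had 61.2 and 47.4 CPM in 687g and 103 and 69.9 CPM in Epcam hi (edgeR adjusted p 0.0333). Its call was lost without 687g replicate 2 (adjusted p 0.18) and without Epcam hi replicate 1 (0.284). Among other growth factors and receptors 18 of 43 (41.9%) were higher and 10 (23.3%) lower. Fgf2 had 199 and 155 CPM in 687g and 1.12 and 0.984 CPM in Epcam hi (7.39 ± 0.27), and its receptor Fgfr1 had 268 and 195 CPM in 687g and 3.79 and 3.66 CPM in Epcam hi (5.95 ± 0.25). Ret, the receptor of the GDNF family, had 0.502 and 0.201 CPM in 687g and 80.4 and 113 CPM in Epcam hi (−8.02 ± 0.34, edgeR adjusted p 6.70e-10).

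The dual-specificity phosphatases and Sprouty proteins include feedback inhibitors of receptor and MAP kinase signals, though not every member of the list is one. Of 25 tested members, 13 (52%) were lower and 6 (24%) higher, with a median of −0.58. Dusp18 had 1.06 and 1.54 CPM in 687g and 43.2 and 38.5 CPM in Epcam hi (log2 fold change −4.98 ± 0.28, edgeR adjusted p 1.04e-08), and Dusp2 14.1 and 16.7 CPM in 687g and 0.421 and 0.273 CPM in Epcam hi (5.46 ± 0.40). The immediate feedback gene Dusp1 fell by 1.84 and Spry1 by 4.75 on the log2 scale, while Dusp4 rose by 2.55. In the phosphodiesterase and adenylyl cyclase family, which sets cyclic nucleotide levels, 11 of 20 (55%) were higher and 3 (15%) lower, with a median of 1.34. Pde1b had 30 and 28 CPM in 687g and 0.14 and 0.0547 CPM in Epcam hi, a count ratio of 316 with an interval of 108 to 1533. Pde4d had 5.41 and 4.23 CPM in 687g and 15.7 and 12.4 CPM in Epcam hi (−1.54 ± 0.27, edgeR adjusted p 5.32e-04), whereas Pde4a rose by 5.92 and the cyclase Adcy1 by 7.87.

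Beyond the epithelial marker panel, whose 14 genes were all lower in 687g, genes of apical-basal polarity and vesicle traffic were counted. Of 41 tested, 23 (56.1%) were lower, 5 (12.2%) higher and 13 not called. The median was −1.79, or −1.30 with the fold taken at the floor for genes of 3 counts or fewer in 1 line. Prkcz, the atypical protein kinase C of the Par complex, had no count in 687g and 11.9 and 7.65 CPM in Epcam hi, and was at least 107-fold lower. Rab25, a Rab11-family GTPase of epithelial recycling endosomes, had 0.502 and 0.268 CPM in 687g and 175 and 174 CPM in Epcam hi (log2 fold change −8.76 ± 0.28, edgeR adjusted p 1.41e-10). Ap1m2, the epithelial adaptor subunit that sorts basolateral cargo, had 0.558 and 0.47 CPM in 687g and 256 and 219 CPM in Epcam hi (−8.82 ± 0.28). Both were also lower in pB3 than in pB2, by less, with differences between the pairs of −6.43 and −5.33 (edgeR adjusted p 5.07e-09 and 2.76e-08). Sytl2 went against the list, at 19.6 and 20 CPM in 687g and 0 and 0.164 CPM in Epcam hi, a count ratio of 215 with an interval of 73.2 to 1044. In the claudin family 6 of 8 tested members (75%) were lower and none higher by edgeR. In the desmosome family 7 of 10 (70%) were lower and 1 (10%) higher. The shares over all tested genes were 18% lower and 18.4% higher. Ppl, the desmosomal linker periplakin, had 0.558 and 0.134 CPM in 687g and 26.5 and 30.4 CPM in Epcam hi (−6.26 ± 0.41). Pkp1, a plakophilin, was the desmosomal gene that rose, at 227 and 108 CPM in 687g and 18.3 and 23.7 CPM in Epcam hi (2.99 ± 0.31, edgeR adjusted p 3.49e-06), or 2.35 without 687g replicate 1.

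Keratins were retained in part. Of 16 tested, 6 were lower and 2 higher, and the higher count was 1 without 687g replicate 2 and 4 without Epcam hi replicate 2. With all libraries the shares were 12.5% higher and 37.5% lower. Krt8 had 250.0 and 201 CPM in 687g and 407 and 535 CPM in Epcam hi, Krt18 1159 and 1068 CPM in 687g and 3001 and 2641 CPM in Epcam hi, and Krt7 1259.9 and 1015 CPM in 687g and 3662 and 2777 CPM in Epcam hi. These simple-epithelium keratins were 2.09-, 2.53- and 2.83-fold lower, while Cdh1, E-cadherin, was 370.2-fold lower, at 1.9 and 0.738 CPM in 687g and 456 and 519 CPM in Epcam hi. Krt13, a keratin of stratified mucosa, had 48.1 and 82.3 CPM in 687g and 0.281 and 0.219 CPM in Epcam hi and was 261-fold higher (edgeR adjusted p 2.65e-09).

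The list of proteases and protease inhibitors holds membrane-bound, secreted and lysosomal proteins. Of its 30 tested members, 16 (53.3%) were lower and 7 (23.3%) higher in 687g. The median was −1.75, or −1.06 with the fold taken at the floor for genes of 3 counts or fewer in 1 line. St14, the epithelial protease matriptase, had 0.335 and 0.604 CPM in 687g and 204 and 208 CPM in Epcam hi (log2 fold change −8.79 ± 0.28, edgeR adjusted p 1.34e-10). Its partner protease Prss8, prostasin, had 0.112 and 0.0671 CPM in 687g and 25.5 and 20.8 CPM in Epcam hi. It rests on 3 counts in 687g, with a ratio of Epcam hi over 687g counts of 251 and an interval of 85.4 to 1218. Their shared inhibitors fell with them, with Spint1 at 0.167 and 0.134 CPM in 687g and 42.2 and 46.9 CPM in Epcam hi (−8.12 ± 0.31) and Spint2 at 17.7 and 26 CPM in 687g and 579 and 569.9 CPM in Epcam hi (−4.72 ± 0.22). Wfdc2, a secreted protease inhibitor known as HE4, had 18.6 and 20.7 CPM in 687g and 2892 and 2712 CPM in Epcam hi (−7.15 ± 0.22, edgeR adjusted p 1.34e-10). The kallikrein Klk8 had 9.87 and 15 CPM in 687g and 455 and 643 CPM in Epcam hi (−5.47 ± 0.26). Cst3, cystatin C, an inhibitor of lysosomal proteases, rose, at 116 and 148 CPM in 687g and 13.1 and 11.3 CPM in Epcam hi (3.44 ± 0.21, edgeR adjusted p 1.66e-08).

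Of 9 tested laminins and nidogens, 3 (33.3%) were higher and 3 (33.3%) lower in 687g. Lama3 and Lamb3, chains of the anchoring laminin of epithelial basement membranes, were among those lower. Lama3 had 1.84 and 0.671 CPM in 687g and 497 and 592 CPM in Epcam hi (log2 fold change −8.71 ± 0.34, edgeR adjusted p 3.32e-10), and Lamb3 59.8 and 54.5 CPM in 687g and 449 and 489 CPM in Epcam hi (−3.04 ± 0.19). Of 17 tested integrins, 5 (29.4%) were higher and 6 (35.3%) lower. Itgb4, part of the hemidesmosome receptor for that laminin, had 41.5 and 21.1 CPM in 687g and 229 and 287 CPM in Epcam hi (−3.04 ± 0.29, edgeR adjusted p 1.54e-06), and Itgb6 had 0.167 and 0.0671 CPM in 687g and 20.8 and 19.5 CPM in Epcam hi. Itgb1 and Itgb2 were lower too, with log2 fold changes of −0.70 and −2.63. The beta integrins that rose were Itgb3, at 26.5 and 19.7 CPM in 687g and 0.983 and 1.15 CPM in Epcam hi (4.42 ± 0.28), and Itgb5, at 459 and 221 CPM in 687g and 50.7 and 41.9 CPM in Epcam hi (2.88 ± 0.29, or 2.26 without 687g replicate 1). Lama3 was higher in pB3 than in pB2, a difference between the pairs of −13.53 (edgeR adjusted p 1.76e-10). Lamb3 was lower in pB3 than in pB2, with a log2 fold change of −2.17 and a difference between the pairs of −0.87 (edgeR adjusted p 0.0143).

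Matricellular and elastic fibre genes rose, 18 of 33 tested (54.5%) against 5 lower (15.2%). The median was 2.06, or 1.30 with the fold taken at the floor for genes of 3 counts or fewer in 1 line. Spp1, osteopontin, had 18645 and 17686 CPM in 687g and 399 and 348 CPM in Epcam hi and was 48.6-fold higher (edgeR adjusted p 3.18e-10). Thbs1, thrombospondin-1, had 4584 and 2148 CPM in 687g and 866 and 751 CPM in Epcam hi (2.06 ± 0.29), and Sparc 892 and 712 CPM in 687g and 191 and 72.7 CPM in Epcam hi (2.60 ± 0.34). Thbs1 was at 1.41 without 687g replicate 1, and Sparc at 3.46 without Epcam hi replicate 1. Igfbp7 went the other way, at 22.9 and 18.9 CPM in 687g and 162 and 108 CPM in Epcam hi (−2.69 ± 0.22, edgeR adjusted p 4.36e-07). In the collagen family 10 of 26 tested members (38.5%) were higher and 4 (15.4%) lower. Col6a1, of beaded microfibrils, had 28.9 and 12.3 CPM in 687g and 0.14 and 0.0547 CPM in Epcam hi, a count ratio of 232 with an interval of 78.9 to 1126, while Col5a1 rose by 6.97 and Col5a3 by 8.44. Col13a1, a transmembrane collagen, had 0.112 and 0 CPM in 687g and 39 and 21.2 CPM in Epcam hi. Serpinh1 encodes Hsp47, the chaperone that collagens need to fold, and it fell, at 0.781 and 2.21 CPM in 687g and 128 and 84.4 CPM in Epcam hi (−6.18 ± 0.37, edgeR adjusted p 1.65e-08). It was lower in pB3 than in pB2 as well.

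Matrix metalloproteinases and Timps were called in 15 of 16 tested members, 9 (56.2%) higher and 6 (37.5%) lower. Timp1, a broad inhibitor of these proteases, had 967 and 1287 CPM in 687g and 113 and 102 CPM in Epcam hi (log2 fold change 3.39 ± 0.20, edgeR adjusted p 1.35e-08), and Mmp14, the main membrane-type collagenase, 319 and 209 CPM in 687g and 83.9 and 87.7 CPM in Epcam hi (1.62 ± 0.21). Mmp9 had 0.39 and 1.14 CPM in 687g and 22.5 and 10 CPM in Epcam hi (−4.43 ± 0.50, with −5.34 without 687g replicate 2 and −3.74 without Epcam hi replicate 1). Mmp13 was uneven within both lines, at 8.2 and 36.8 CPM in 687g and 441 and 50.7 CPM in Epcam hi. It lost its call without 687g replicate 1 (edgeR adjusted p 0.0511) and without Epcam hi replicate 1 (0.073). The plasminogen activators fell. Plau, urokinase, had 258 and 324 CPM in 687g and 3245 and 1746 CPM in Epcam hi (−3.10 ± 0.29), and Plat, the tissue activator, 16.2 and 11.5 CPM in 687g and 104 and 91.5 CPM in Epcam hi (−2.81 ± 0.25). Plau and Plat were higher in pB3 than in pB2, with differences between the pairs of −10.42 and −10.80 (edgeR adjusted p 8.12e-10 and 1.10e-09). Of hyaluronan genes, the synthase Has2 had 999 and 1589 CPM in 687g and 107 and 189.5 CPM in Epcam hi (3.12 ± 0.30), and the receptor Cd44 607 and 482 CPM in 687g and 1858 and 2183 CPM in Epcam hi (−1.89 ± 0.19, edgeR adjusted p 2.89e-06).

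MHC class I antigen presentation was lower in 687g, with 12 of 22 tested members (54.5%) lower, 4 (18.2%) higher and a median of −0.66. The share higher was near the 18.4% of all tested genes. The count lower was 9 to 12 when 1 library was left out. Nlrc5, the transactivator of these genes, had 1.12 and 1.34 CPM in 687g and 37.2 and 41.7 CPM in Epcam hi and was 32.1-fold lower (edgeR adjusted p 4.75e-09). The heavy chain H2-K1 had 75.1 and 66.2 CPM in 687g and 377 and 294 CPM in Epcam hi (−2.25 ± 0.19), and H2-D1 94.5 and 73.4 CPM in 687g and 365 and 285 CPM in Epcam hi (−1.95 ± 0.20). B2m, the light chain, had 296 and 306 CPM in 687g and 862 and 711 CPM in Epcam hi (−1.39 ± 0.17, edgeR adjusted p 2.19e-05). H2-Q7 had no count in 687g and 14.2 and 5.85 CPM in Epcam hi, and was at least 110.0-fold lower. The H2 heavy chain genes are close copies of each other, and how reads that map to several genes were counted is not given in the sources used here, so the split among them is uncertain. The peptide transporter Tap1 had 1.34 and 0.336 CPM in 687g and 23.5 and 10 CPM in Epcam hi (−4.26 ± 0.51), and its fold change was −5.60 without 687g replicate 1, −3.63 without 687g replicate 2 and −3.51 without Epcam hi replicate 1. The proteasome activator Psme1 rose, at 114 and 150.0 CPM in 687g and 50.3 and 29.7 CPM in Epcam hi (1.72 ± 0.24, edgeR adjusted p 7.36e-05). The changes of Nlrc5, B2m and H2-K1 differed from those between pB3 and pB2 by −7.79, −3.95 and −2.77 (edgeR adjusted p 2.97e-09, 2.67e-08 and 1.25e-06). These genes were higher in pB3 than in pB2. Tap1 and H2-Q7 were lower in pB3 as well, with log2 fold changes of pB3 over pB2 of −2.18 and −3.24. Of the 22 tested members, 7 were called higher and 6 lower in pB3 than in pB2.

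Interferon-stimulated genes did not fall with them, since 14 of 38 tested (36.8%) were higher and 4 (10.5%) lower. Ifi204, a DNA sensor, had 79 and 75.1 CPM in 687g and 5.19 and 2.08 CPM in Epcam hi (log2 fold change 4.43 ± 0.33, edgeR adjusted p 1.28e-07), and its close copy Ifi203 51.8 and 47 CPM in 687g and 0.14 and 0.109 CPM in Epcam hi, with the same doubt over shared reads. Usp18, which removes Isg15 from proteins, had 2.79 and 1.07 CPM in 687g and 37.4 and 28.5 CPM in Epcam hi (−4.06 ± 0.36, or −4.93 without 687g replicate 1). Ifi204 was at 5.21 without Epcam hi replicate 1. Of the interferon transcription factors, Irf1 had 36 and 42 CPM in 687g and 35.4 and 26.4 CPM in Epcam hi (edgeR adjusted p 0.23). Irf7 had 2.62 and 1.61 CPM in 687g and 0.912 and 0.0547 CPM in Epcam hi (edgeR adjusted p 0.0326), and lost its call without 687g replicate 1 (0.175), 687g replicate 2 (0.0569) or Epcam hi replicate 2 (0.0705).

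Interleukins and their receptors were called in 27 of 35 tested members, 16 (45.7%) higher and 11 (31.4%) lower. With Il6, already described, its receptor Il6ra had 14.7 and 10.9 CPM in 687g and 0.281 and 0.984 CPM in Epcam hi (log2 fold change 4.25 ± 0.40, edgeR adjusted p 1.53e-06), or 5.49 without Epcam hi replicate 2. The related cytokine Lif went down, at 26.2 and 46.2 CPM in 687g and 173 and 169.7 CPM in Epcam hi (−2.25 ± 0.24), and its receptor Lifr went up, at 6.25 and 6.64 CPM in 687g and 0.14 and 0 CPM in Epcam hi. Il1a, an alarmin, had 0.112 and 0.134 CPM in 687g and 57.1 and 32 CPM in Epcam hi (−8.42 ± 0.54), and Il23a, a subunit of interleukin-23, 1.45 and 1.54 CPM in 687g and 193 and 166 CPM in Epcam hi (−6.90 ± 0.25, edgeR adjusted p 2.59e-10). The alarmin-like Tslp rose, at 62.9 and 94.7 CPM in 687g and 15.2 and 11.8 CPM in Epcam hi (2.54 ± 0.26). Among chemokines and their receptors 9 of 20 were higher and 5 lower, and the lower count was 2 without 687g replicate 1 and 3 without either Epcam hi library. With all libraries the shares were 45% higher and 25% lower. Cxcl12, a ligand of Cxcr4, had 142 and 115 CPM in 687g and 6.04 and 6.01 CPM in Epcam hi (4.41 ± 0.21, edgeR adjusted p 2.28e-09), and Cxcl16 1.62 and 1.88 CPM in 687g and 289 and 237 CPM in Epcam hi (−7.23 ± 0.24). Cxcl1 had 6.97 and 99.7 CPM in 687g and 141 and 165 CPM in Epcam hi and did not pass (edgeR adjusted p 0.0976), though it did without 687g replicate 1 (0.0265) and without 687g replicate 2 (6.93e-07).

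Markers of leukocytes stood beside these immune genes. The summed level of 13 leukocyte markers was 816 and 1249 CPM in 687g, against 44.2 and 24.5 CPM in Epcam hi. Nearly all of it was S100a8, a calcium-binding protein of neutrophils, at 812 and 1246 CPM in 687g and 7.86 and 9.95 CPM in Epcam hi, and 10 of the 13 were at 0 in both 687g libraries, Ptprc (CD45), Cd3e and Itgam among them. The 12 fibroblast markers summed to 359 and 249 CPM in 687g and 466 and 349 CPM in Epcam hi. Col3a1 was at 0 in both lines, and Dcn and Thy1 were at 0 in 687g only. Of the 5 that were tested, Pdgfrb, Col1a1 and Pdgfra were higher in 687g, and Fap and Gsn were not called. Pdgfrb, a PDGF receptor, had 13.5 and 8.12 CPM in 687g and 0.0702 and 0 CPM in Epcam hi, and Pdgfra 6.08 and 5.97 CPM in 687g and 2.46 and 2.02 CPM in Epcam hi. Gsn, gelsolin, made up most of the sum, at 338 and 233 CPM in 687g and 464 and 346 CPM in Epcam hi (edgeR adjusted p 0.0773). Endothelial markers summed to 4.18 and 2.55 CPM in 687g and 10.8 and 9.46 CPM in Epcam hi. The part of other cells in the immune and matrix results was not tested.

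Growth and protein synthesis genes moved by small amounts. Of 50 tested genes of the cell cycle and DNA replication, 20 (40%) were lower and 3 (6%) higher, with a median of −0.40, and 6 were higher without Epcam hi replicate 2. Ccne1, cyclin E1, had 12 and 14.7 CPM in 687g and 62.1 and 70.6 CPM in Epcam hi (log2 fold change −2.32 ± 0.20, edgeR adjusted p 6.19e-07), and Ccnd2, cyclin D2, 48.2 and 34.8 CPM in 687g and 16.4 and 12.2 CPM in Epcam hi (1.54 ± 0.22). The proliferation marker Mki67 had 179 and 131 CPM in 687g and 157 and 220.4 CPM in Epcam hi, which overlapped (edgeR adjusted p 0.376). Of 34 aminoacyl-tRNA synthetases, 14 (41.2%) were lower and none higher by edgeR, with a median of −0.45, but 6 were lower without 687g replicate 2 and 6 without Epcam hi replicate 1. Mars2, the mitochondrial methionyl enzyme, had 13 and 16.9 CPM in 687g and 30.4 and 40.8 CPM in Epcam hi (−1.26 ± 0.21, edgeR adjusted p 3.30e-04). Of 79 cytosolic ribosomal proteins, 18 (22.8%) were higher and none lower, near the background for higher calls, and 35 were higher without 687g replicate 1. Many of these proteins have near-identical pseudogenes, so their counts are uncertain. Respiratory chain subunits were higher in 21 of 87 (24.1%) and lower in 4 (4.6%), and the higher count was 33 without 687g replicate 1, 8 without 687g replicate 2 and 7 without Epcam hi replicate 1. Mitochondrially encoded genes took 1.03% and 1.9% of counts in 687g, against 0.375% and 1.09% in Epcam hi, and their part in these counts was not tested.

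Of 41 tested genes of hypoxia and glycolysis, 13 (31.7%) were higher and 7 (17.1%) lower in 687g, the share lower being near the 18% of all tested genes. Both oxygen-regulated subunits rose, Hif1a at 334 and 334 CPM in 687g and 109 and 109 CPM in Epcam hi (log2 fold change 1.61 ± 0.16, edgeR adjusted p 3.32e-06) and Epas1, HIF-2 alpha, at 8.64 and 4.63 CPM in 687g and 0.281 and 0.164 CPM in Epcam hi (4.90 ± 0.48). Car9, the carbonic anhydrase used as a hypoxia marker, had 1.67 and 1.61 CPM in 687g and 119 and 156 CPM in Epcam hi (−6.39 ± 0.25, edgeR adjusted p 3.32e-10), and Ndrg1 4.41 and 2.48 CPM in 687g and 60.4 and 80.2 CPM in Epcam hi (−4.33 ± 0.28). The lactate exporter Slc16a3 (MCT4) had 78.6 and 93.2 CPM in 687g and 0.772 and 0.711 CPM in Epcam hi (6.85 ± 0.30), and the glucose carrier Slc2a1 (GLUT1) 73.8 and 75.3 CPM in 687g and 109 and 162 CPM in Epcam hi (−0.86 ± 0.20, edgeR adjusted p 0.00415).

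Lipid, retinoid and eicosanoid genes held several large rises. Of 42 tested fatty acid and lipid droplet genes 15 (35.7%) were higher and 9 (21.4%) lower. Pparg, the regulator of fat cell formation, had 24.1 and 23.7 CPM in 687g and 0.0702 and 0 CPM in Epcam hi, a count ratio of 778 with an interval of 139 to 30770.1, and its target Lpl 10.9 and 10.4 CPM in 687g and 0 and 0.273 CPM in Epcam hi. The 8 adipocyte markers summed to 13 and 18.5 CPM in 687g and 0.281 and 0.492 CPM in Epcam hi. Adipoq, Plin1 and Lep were at 0 in both lines, and 7 of the 8 markers were at 0 in Epcam hi. Dhrs3, a retinaldehyde reductase induced by retinoic acid, had 65.1 and 91.9 CPM in 687g and 0 and 0.273 CPM in Epcam hi (log2 fold change 8.93 ± 0.44, edgeR adjusted p 2.71e-09), and Stra6, the retinol importer, 4.46 and 3.69 CPM in 687g and 0 and 0.0547 CPM in Epcam hi. In all, 12 of 29 retinoid and aldehyde dehydrogenase genes were higher and 5 lower, and 3 were lower without 687g replicate 1. With all libraries the shares were 41.4% higher and 17.2% lower, the share lower being near the 18% of all tested genes. Pla2g4a, which releases arachidonic acid from membranes, had 2810.3 and 3178 CPM in 687g and 115 and 79.4 CPM in Epcam hi (4.95 ± 0.23, edgeR adjusted p 1.84e-09). Ptgs1, the constitutive cyclooxygenase, had 71.2 and 77 CPM in 687g and 0.421 and 0.273 CPM in Epcam hi (7.74 ± 0.29). Ptgs2, the inducible cyclooxygenase, had 922 and 916 CPM in 687g and 1214 and 1309 CPM in Epcam hi (edgeR adjusted p 0.0422), a call lost when any 1 of the 4 libraries was left out (0.0552 to 0.128).

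Several transcription factors of organ patterning were found in 687g and near 0 in Epcam hi. Foxf1, a forkhead factor of visceral mesenchyme, had 17.7 and 15.4 CPM in 687g and 0.0702 and 0 CPM in Epcam hi, Gata4 29.7 and 16.2 CPM in 687g and 0.0702 and 0.0547 CPM in Epcam hi, and Tbx2 10.8 and 7.38 CPM in 687g and no count in Epcam hi. Count ratios were 542 for Foxf1 (interval 96.9 to 21453) and 384 for Gata4 (106 to 3173), and Tbx2 was at least 98.4-fold higher. In the forkhead family 11 of 29 tested members were higher and 2 lower, 7 and 5 without 687g replicate 1. With all libraries the forkhead shares were 37.9% higher and 6.9% lower. Elf3, an epithelial Ets factor, had no count in 687g and 20.9 and 17.3 CPM in Epcam hi, and was at least 209-fold lower. Of 317 tested Zfp zinc finger genes 61 (19.2%) were higher, near the background, and 30 (9.46%) lower.

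Of 25 tested imprinted genes, expressed from 1 parental copy, 9 (36%) were lower and 3 (12%) higher. Mest, on chromosome 6, had 0.167 and 0.134 CPM in 687g and 6.11 and 12.7 CPM in Epcam hi (log2 fold change −5.89 ± 0.56, edgeR adjusted p 1.83e-06). Its chromosome also holds Sgce, Peg10 and Ppp1r9a, which lie in 1 imprinted cluster. Sgce had 0.279 and 0.604 CPM in 687g and 6.39 and 4.32 CPM in Epcam hi (−3.61 ± 0.41, or −4.21 without 687g replicate 2), and Ppp1r9a 0.167 and 0.268 CPM in 687g and 9.69 and 9.84 CPM in Epcam hi (−5.46 ± 0.57). Peg10 had 0.279 and 0.0671 CPM in 687g and 0.632 and 4.1 CPM in Epcam hi (edgeR adjusted p 0.00479), and lost its call without 687g replicate 2 (0.0652) and without Epcam hi replicate 2 (0.105). Xist, the RNA that coats an inactive X chromosome, had 34.7 and 56.2 CPM in 687g and 387 and 956 CPM in Epcam hi (−3.89 ± 0.47, edgeR adjusted p 1.61e-05), or −3.07 without Epcam hi replicate 2.

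Calls were not spread evenly over chromosomes. On chromosome X 32.5% of 584 tested genes were higher in 687g and 13.5% lower, and on chromosome 14 32.9% of 559 were higher and 10.4% lower. On chromosome 4, 12.6% of 1002 tested genes were higher and 28.2% lower, and on chromosome 6, 11.7% of 828 were higher and 29.5% lower. The median log2 fold changes were 0.15, 0.30, −0.34 and −0.34, and with 1 library left out they lay between 0.10 and 0.35 on X, 0.27 and 0.45 on 14, −0.39 and −0.23 on 4 and −0.40 and −0.24 on 6. Set against the mean of pB3 and pB2, for genes at 10 CPM or more in every line, the X median was 0.51 in 687g and −0.05 in Epcam hi. On chromosome 14 it was 0.09 in 687g and −0.38 in Epcam hi, on chromosome 6 −0.02 in 687g and 0.40 in Epcam hi, and on chromosome 4 −0.14 in 687g and 0.14 in Epcam hi. Both lines are set against the same pB mean there, so the values are a description. Runs of 50 neighbouring tested genes whose median reached 1.0 formed 2 stretches, both on X, chrX:94023860-103484957 with 59 genes and chrX:113040593-143184537 with 77 genes in GRCm38 coordinates. Over all genes of each stretch the median log2 fold change was 0.69 and 0.84, and 50.8% and 46.8% of the genes were higher in 687g. Without 687g replicate 1 there was 1 stretch, without Epcam hi replicate 2 there were 6, and windows of 100 genes gave 0. Gene copy number was not measured.

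**Figure D5:**
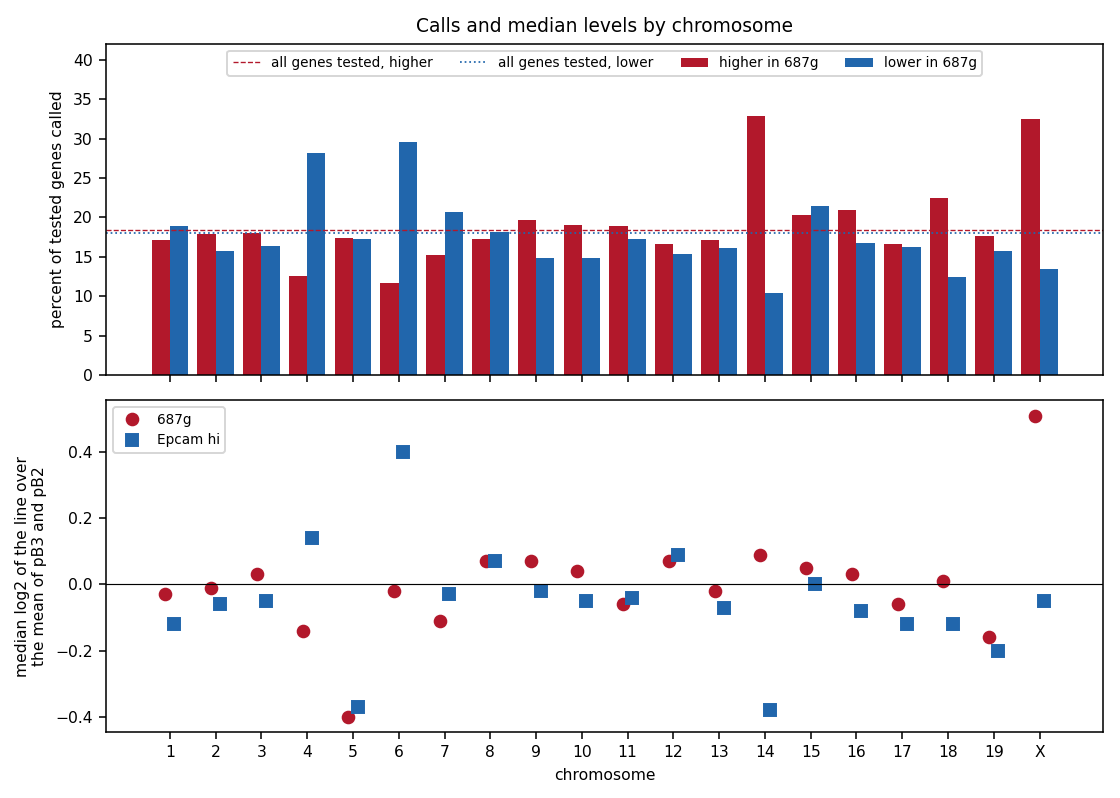
Top, percent of tested genes on each chromosome called higher (red) and lower (blue) in 687g, with lines at 18.4% and 18% for all genes. Bottom, median log2 of each line over the mean of pB3 and pB2 for genes at 10 CPM or more in every line, where 687g (red circles) is highest on X at 0.51 and Epcam hi (blue squares) is lowest on 14 at −0.38 and highest on 6 at 0.40.

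The difference of 687g from Epcam hi was only in part that of pB3 from pB2. Between pB3 and pB2, 7116 genes (44.8%) were called. The difference between the pairs passed for 5994 genes (37.7%), among them genes that moved the same way in both pairs by different amounts. Of 3312 genes called in both pairs, 1899 moved in the same direction and 1413 in opposite directions. For 821 of those 1413, at 10 CPM or more in the higher line of both pairs, the difference itself was called. Predicted genes, pseudogenes and genes with no symbol were left out of the 821. Opposite calls in both pairs all but fix a called difference, so the 821 describe the filters and are no further test. The pairs share no library but share 1 estimate of the spread. Of the 821, 376 were higher and 445 lower in 687g.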

How the data were processed

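RNA from 8 cultured-cell libraries, 2 per line, was sequenced after poly-A library preparation. The deposited values are counts per gene: the authors used STAR 2.6.1a, GRCm38 and featureCounts, per the submitters' processing notes, and counted by strand, per the series' design text. What was done with multi-mapping reads is not given in the sources used here. Of 53379 gene IDs, 53274 were given a symbol from the GENCODE annotation.

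Here edgeR 4.0.16 (R 4.3.3) fitted all 8 libraries with 1 term per line, TMM factors (0.926 to 1.12), the default filter on low counts and the quasi-likelihood test, with Benjamini-Hochberg adjustment at 0.05. The difference between the pairs was a contrast of the same fit. On simulated counts for 15890 genes, 54% of 2-fold and 99% of 4-fold changes between 687g and Epcam hi were called in the right direction. Only well-counted genes were changed there, and every gene and line was given the same spread. The real Epcam hi libraries lay further apart, so the shares found in the data may be lower. DESeq2 1.42.0 and limma 3.58.1 were alternatives. Members and gene lists were chosen with earlier results of these data known. Genes named by rule were the 10 largest folds in each direction at 10 CPM or more, the top member of each list in each direction at 1 CPM or more, and 4 differences between pairs in each direction. Some genes that the rule names are not reported here. Counting intervals are exact Poisson 95% intervals and cover counting error only.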

Additional observations from a re-analysis of the deposited data

Results flagged for a closer look

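The difference between the pairs, 687g over Epcam hi minus pB3 over pB2 on the log2 scale, passed edgeR's test for 5994 of 15890 genes, and 7 genes called in opposite directions in the pairs stood out by its size. These genes were chosen by that size among genes with opposite calls, so their p-values are no separate test. Where a line lies at or near 0, the fitted size depends on the prior count.

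Among the 4 genes higher in 687g and lower in pB3, Smoc1, a matricellular protein, had 196 and 123 CPM in 687g, 0.351 and 0.383 CPM in Epcam hi, 0.873 and 0.518 CPM in pB3 and 97 and 104 CPM in pB2, a difference of 15.89 ± 0.49 (SE, edgeR adjusted p 1.26e-10). Fstl1, a secreted follistatin-like protein, had 277 and 234 CPM in 687g, 0.842 and 0.875 CPM in Epcam hi, 1.07 and 0.388 CPM in pB3 and 161 and 132 CPM in pB2, a difference of 15.84 ± 0.46 (edgeR adjusted p 1.07e-10). Hey1 had 18.7 and 16.4 CPM in 687g, 0.211 and 0.0547 CPM in Epcam hi, 0.336 and 0.194 CPM in pB3 and 122 and 101 CPM in pB2, a difference of 15.75 ± 0.51 (edgeR adjusted p 1.42e-10). Eva1a had 12.9 and 13.2 CPM in 687g, 1.12 and 0.437 CPM in Epcam hi, no count in pB3 and 15.5 and 11.9 CPM in pB2, a difference of 14.88 ± 0.84 (edgeR adjusted p 2.31e-08). Each of these genes was near silent in 1 line of each pair.

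Among the 3 genes lower in 687g and higher in pB3, Mcpt8, a granule protease of basophils, had 0.725 and 1.61 CPM in 687g, 97.3 and 113 CPM in Epcam hi, 70.7 and 65.6 CPM in pB3 and 0.222 and 0 CPM in pB2, a difference of −15.92 ± 0.60 (edgeR adjusted p 2.48e-10). Dynap had 3.51 and 3.15 CPM in 687g, 944 and 901 CPM in Epcam hi, 104 and 96.2 CPM in pB3 and 0.518 and 0.636 CPM in pB2, a difference of −15.50 ± 0.34 (edgeR adjusted p 8.26e-12). Col8a1, a short-chain collagen, had 3.01 and 2.35 CPM in 687g, 180.1 and 92.3 CPM in Epcam hi, 232 and 261 CPM in pB3 and 0.444 and 0.265 CPM in pB2, a difference of −15.12 ± 0.55 (edgeR adjusted p 2.04e-10).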

How the results depend on the processing

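The 5789 genes called in 687g against Epcam hi were 4435 with only the 4 libraries of the pair, 5448 by DESeq2, 5675 by limma-voom, 5850 without scaling factors, 6376 without a filter on low counts and 5102 to 6498 with 1 library left out, highest without Epcam hi replicate 2. Without scaling factors the median log2 fold change shifted by −0.12. The difference between the pairs, 5994 genes, was 4629 to 6896 with 1 library left out. Called list members, 1161 in the main setting, were 971 to 1177 over the alternatives. Replicate numbers did not pair the samples, with correlations of deviations between same-numbered libraries of −0.0982 to 0.173, and a replicate block gave 5655 genes and 5914 for the difference. Trp53 was not called in any setting and its sign turned: it was −0.32 to 0.15 with 1 library left out, positive without 687g replicate 2 (0.14) and without Epcam hi replicate 2. The 2 stretches on chromosome X became 0 with windows of 100 genes and 1 to 6 with 1 library left out. The cause was not tested. With 2 libraries per line, small changes are detected unevenly, and the lines cannot stand for states.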
